A study of Homo sapiens with 21 samples.

Results

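Spheroids of HepG2/C3A cells that had been kept in culture for 28 days were compared with the same line grown as a flat monolayer. The comparison uses the 3 Day 28 libraries and the 3 2D libraries, 6 of the 21 libraries of the study, and all 12345 genes with enough counts to test out of 19683 in the table. HepG2/C3A is an established human hepatoma-derived liver line, labelled wild type, and every group shares it and the same serum-containing MEM medium. The 2D group is the monolayer control. The spheroids were aggregated in ultra-low attachment plates and then moved to a ClinoReactor, and the other groups were collected at Days 3, 7, 10, 14 and 21 with 3 libraries each. RNA was measured by TempO-Seq, in which pairs of detector oligos are ligated on each target RNA and counted, from 100 ng of total RNA a library. The labels call the replicates biological but name no separate cultures. The p-values therefore cover variation among these libraries, which may be technical. All results are for 1 clonal hepatoma line grown without other liver cells, which limits both groups as models of liver.

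Hepatocytes make most proteins of blood plasma, including albumin, clotting factors and lipoproteins, and they handle amino acids, glucose, lipids and drugs. These functions depend on a network of transcription factors such as HNF4A and C/EBP alpha and usually weaken when liver cells are spread on plastic. Flat culture stretches the cytoskeleton, which favours growth signalling through the coactivator YAP, whereas cells in a spheroid contact each other on all sides.

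The 6 libraries held 18760232 to 43443262 counts, and Day 28 replicate 1 was both the shallowest and the farthest from its group, with a median absolute log2 deviation of 0.207 from the other replicates against 0.107 to 0.156 in the other 5. The biological coefficient of variation was 12.2% at Day 28 and 7.51% in 2D. The fit shares 1 spread per gene across groups, so standard errors (SE) at Day 28 may be too small. Hepatocyte markers were present in both groups: their 9 markers summed to 10500 to 11200 CPM (counts scaled to a common library size) in 2D and 37600 to 44200 at Day 28, with none at 0. Defining markers of other liver cells were at 0 in all 6 libraries, among them KDR and STAB2 of endothelium, COL1A1 and COL3A1 of stellate cells, CD163 and MARCO of macrophages and PTPRC of lymphocytes. Of the rest, the 7 endothelial markers summed to 0.911 to 2.01 CPM in 2D and 1.09 to 1.6 at Day 28, and the 7 stellate or fibroblast markers to 8.35 to 13.4 and 12.8 to 17.7, nearly all of it ACTA2. The 7 macrophage markers summed to 44 to 49.9 CPM in 2D and 28.5 to 36.9 at Day 28, most of it CD68, and the 6 lymphocyte markers to 3.51 to 5.83 and 11.5 to 13.9. The 7 cholangiocyte markers summed to 601 to 640 CPM in 2D and 477 to 518 at Day 28. In such bulk libraries fewer cells of a kind and less RNA per cell cannot be told apart.

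Promoter stretches are shown for groups of genes that moved together, because their shared sequence features are readable within a short window. Each is the 150 bases before the RefSeq start site (GRCh38.p14), 5′ to 3′ on the gene's own strand.

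EGR1, an immediate early transcription factor, is shown for the serum response CArG box, marked in capitals, and lies at chr5:138465329-138465478 on the plus strand.
EGR1: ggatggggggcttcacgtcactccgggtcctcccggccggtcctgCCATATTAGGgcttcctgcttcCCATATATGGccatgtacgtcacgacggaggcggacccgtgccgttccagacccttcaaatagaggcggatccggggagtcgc
The box was present in the promoters of EGR1 and SRF among 16 immediate early genes with an entry (12.5%) within windows of 300 bases, against 1.29% of all 27305 promoters of this length, with both strands searched. The shorter CREB and ATF core, TGACG, was in 68.8% of the same 16, in 25% of all promoters and in 34% of those of the genes tested. The AP-1 site, TGANTCA, was in 6.25% of the 16, which is 1 gene, FOSL2. It was in 7.76% of all promoters and in 4.52% of those of the genes tested. For cell division, the 4 mitosis genes described with values below are shown, with the CHR element TTTGAA and the CCAAT box in capitals on both strands: CCNB2, chr15:59104996-59105145 on the plus strand, MKI67, chr10:128126424-128126573 on the minus strand, CCNB1, chr5:69167000-69167149 on the plus strand, and TOP2A, chr17:40417897-40418046 on the minus strand.
CCNB2: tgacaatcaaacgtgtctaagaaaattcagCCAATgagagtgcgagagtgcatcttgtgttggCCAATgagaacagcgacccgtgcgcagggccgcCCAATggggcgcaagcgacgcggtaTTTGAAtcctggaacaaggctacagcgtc
MKI67: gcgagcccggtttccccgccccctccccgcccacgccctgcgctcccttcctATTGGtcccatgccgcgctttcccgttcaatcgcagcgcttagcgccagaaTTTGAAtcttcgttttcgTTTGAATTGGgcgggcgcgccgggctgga
CCNB1: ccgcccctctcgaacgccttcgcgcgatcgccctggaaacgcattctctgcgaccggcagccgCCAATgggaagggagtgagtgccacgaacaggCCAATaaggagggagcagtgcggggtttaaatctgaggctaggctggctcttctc
TOP2A: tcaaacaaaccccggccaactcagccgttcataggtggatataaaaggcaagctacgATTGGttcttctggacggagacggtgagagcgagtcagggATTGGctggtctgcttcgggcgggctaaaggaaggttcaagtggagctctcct
Only CCNB2 and MKI67 of these 4 hold a CHR element in the stretch shown: CCNB1 had none in its 300-base window, and both of those of TOP2A lie farther upstream. In MKI67 the last CHR element and the last CCAAT box overlap by a single base. Of 26 mitosis genes with an entry 69.2% held the CHR element within 300 bases, against 15.4% of all promoters, and 80.8% held CCAAT, against 35.7%. The E2F site TTTGGCG was in 27.6% of 29 DNA replication promoters and 1.92% of all. These matches describe letters in a window and show no binding.

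Most measured genes differed between the groups. By edgeR's quasi-likelihood test 4756 genes were higher at Day 28 (38.5% of those tested) and 4302 were lower (34.8%), at a Benjamini-Hochberg adjusted p under 0.05. Because most genes pass that test, a stricter one asked whether the change exceeded 2-fold: 1989 genes were higher (16.1%) and 1432 lower (11.6%). These shares are the background for every count of list members below. Among genes called by the first test, 1229 were at least 4-fold higher and 714 at least 4-fold lower, and 86 and 83 were at least 32-fold so. The median log2 fold change of all genes tested was 0.084, and scaling by library totals alone moved it to 0.299, so the split between rises and falls depends on scaling: 52.5% of called genes were higher as reported and 62.3% with library totals. Switches from nearly nothing were few: 76 genes had a mean under 1 CPM in 2D and at least 5 at Day 28, and 64 the reverse.

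**Figure D1:**
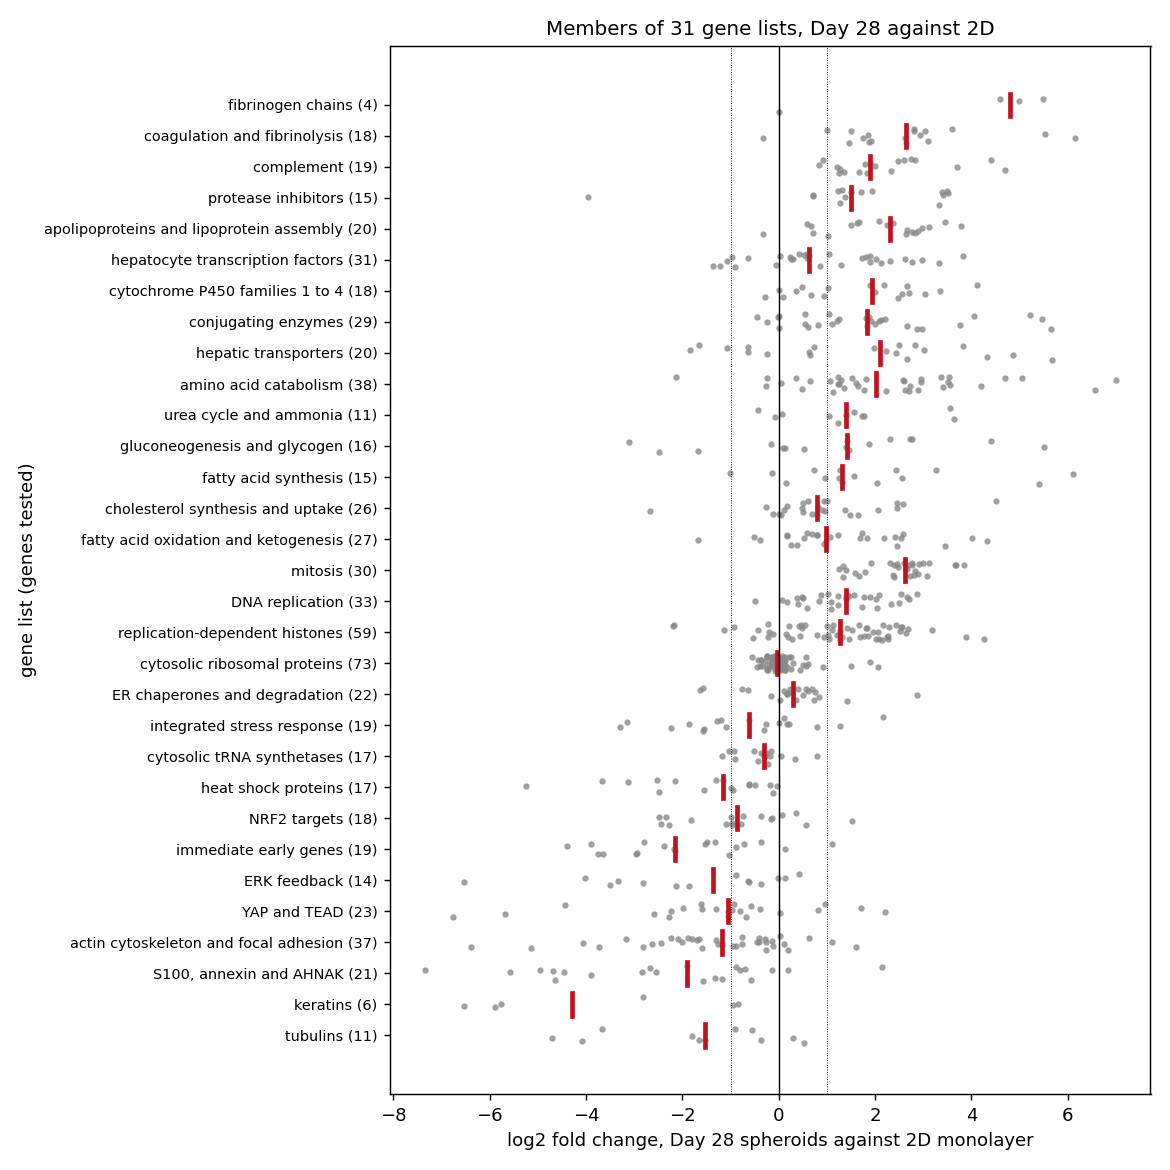
Log2 fold change, Day 28 spheroids against 2D monolayer, of each tested member of 31 gene lists (grey points; number tested in brackets), with the list median as a red bar and dotted lines at a 2-fold change. Fibrinogen, coagulation and mitosis lists have medians of 4.79, 2.64 and 2.63, ribosomal proteins sit at -0.03 (0.19 with library totals alone), and keratins are lowest at -4.29.

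Genes of plasma proteins rose. FGA, the fibrinogen alpha chain, stood at 77.7, 67.3 and 67.7 CPM in the 3 2D libraries and at 3520, 3120 and 2870 at Day 28, a 44.8-fold difference (log2 fold change 5.49 ± 0.10 SE, edgeR adjusted p = 6.99e-29). FGB, the beta chain, stood at 41.5, 40.5 and 41.9 CPM in 2D and at 1310, 859 and 815 at Day 28. FGG, the gamma chain, stood at 85.1, 86.4 and 75.9 CPM and then at 2770, 2730 and 2350. For all 3 chains the lowest spheroid library was far above the highest monolayer library. The fourth gene of that list, FGL1, a fibrinogen-like secreted protein, did not pass the test (log2 fold change 0.01, adjusted p = 0.876). The list took 0.0284 to 0.0305% of all counts in 2D and 0.653 to 0.775% at Day 28. In GENCODE 29 coordinates on GRCh38, FGB spans chromosome 4, 154562956 to 154571086, and FGA lies at 154583126 to 154590766.

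Of 18 coagulation and fibrinolysis genes tested 17 were higher and 1 lower, and 16 passed the 2-fold test upward, with a median of 2.64. F7, clotting factor VII, stood at 10.6, 10.7 and 9.5 CPM in 2D and at 133, 125 and 117 at Day 28. SERPINF2, the plasmin inhibitor, went from 249, 232 and 241 to 2260, 1900 and 2030 CPM, 8.59-fold. F2, prothrombin, rose less, from a highest monolayer value of 113 CPM to a lowest spheroid value of 280. PLG, plasminogen, had no counts in 2D and 22 in all at Day 28, at least 8.44-fold higher with a floor of 3 counts over the group. TFPI, which inhibits tissue factor, was the member that fell (log2 fold change -0.32), and with library totals alone no member was lower. F9, clotting factor IX, was at 0 counts in all 6 libraries.

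Complement showed the same direction, with 18 of 19 genes higher, none lower and 15 past the 2-fold test. C3, the central component, stood at 64.7, 60.7 and 58.4 CPM in 2D and at 291, 309 and 324 at Day 28. MASP2, a protease of the lectin pathway, rose from 5.72, 5.45 and 4.23 CPM to 76.8, 63.3 and 60.9. Of 15 protease inhibitors 14 were higher and 11 passed the 2-fold test. SERPINA10, which inhibits factor Xa, rose 10.7-fold, from 14.8, 14.1 and 13.8 CPM to 153, 142 and 161. SERPINA1, alpha-1 antitrypsin, was already high in 2D at 1510 to 1620 CPM and reached 3390 to 4140.

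Of 20 apolipoprotein and lipoprotein assembly genes 18 were higher and 1 was lower, and 14 passed the 2-fold test. APOC3, which slows triglyceride clearance, stood at 22.7, 20.1 and 19.1 CPM in 2D and at 331, 256 and 262 at Day 28. APOB, the structural protein of very low density lipoprotein, rose from 2470, 2520 and 2530 to 9140, 10400 and 12300 CPM, and MTTP, which loads lipid onto it, from 4.75 to 6.49 CPM to 37.8 to 40.2. ALB, albumin, stood at 1950, 1790 and 1820 CPM in 2D and at 10500, 8760 and 6860 at Day 28, and AFP, its fetal counterpart, at 4060, 3550 and 3590 and then at 13600, 7850 and 9100. Both genes were highest in Day 28 replicate 1.

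**Figure D2:**
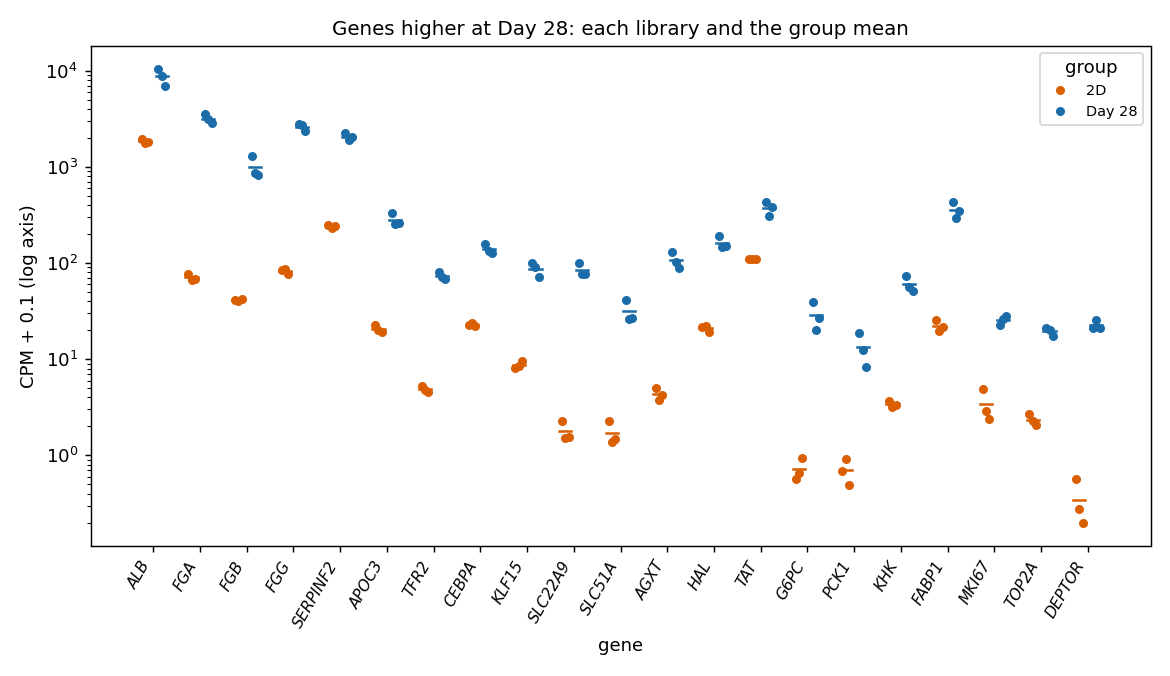
CPM plus 0.1 on a log axis for 21 genes that were higher at Day 28; points are the 3 libraries of each group (orange 2D, blue Day 28) and short lines the group means. In every gene drawn the 3 spheroid points lie above the 3 monolayer points, as in 4794 of all 12345 genes tested. The genes were picked as higher, so this separation is no separate result. The gap is narrowest for TAT, at 3.4-fold, and widest for DEPTOR, at 98.2-fold.

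Of 18 genes of the acute phase and iron list 11 were higher and 5 lower. HP, haptoglobin, which binds free haemoglobin, rose from 3.47, 2.34 and 2.7 CPM to 64.3, 53.1 and 62.1. TFR2, the transferrin receptor through which hepatocytes sense iron, rose 15.4-fold, from 4.46 to 5.21 CPM to 68.3 to 80.5. TF, transferrin, and CP, the ferroxidase ceruloplasmin, rose as well, with log2 fold changes of 2.58 ± 0.17 and 2.79 ± 0.08. SLC40A1, the iron exporter ferroportin, went the other way, from 690, 670 and 640 CPM to 77.6, 56.3 and 75.8. The ferritin chains FTL and FTH1, which store iron, fell too, with log2 fold changes of -1.56 and -1.47. HAMP, the iron hormone hepcidin, rose from a low level (log2 fold change 1.48, 1.02 to 1.28 CPM at Day 28). The share of counts of the list was 0.394 to 0.408% in 2D and 0.391 to 0.413% at Day 28.

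Hepatocyte transcription factors rose more modestly than the genes above. Of 31 tested 22 were higher and 6 lower, and 13 and 2 passed the 2-fold test, with a median log2 fold change of 0.62. CEBPA, which encodes C/EBP alpha, stood at 22.8, 23.6 and 22.1 CPM in 2D and at 158, 134 and 128 at Day 28. HNF4A, the nuclear receptor at the centre of the hepatocyte network, rose from 6.95, 6.59 and 7.91 to 28, 24 and 23.4 CPM, 3.51-fold. NR1H4, the bile acid receptor FXR, went from 10.3 to 10.6 CPM to 50.3 to 52.2. KLF15, a factor of the fasting and glucocorticoid response, showed the largest rise of the list that the naming rule took, from 8.05, 8.42 and 9.5 to 100, 90.4 and 71.7 CPM. FOXA2, a pioneer factor, fell, from 61.5, 81.9 and 78.7 to 23.1, 33.2 and 29.3 CPM. CEBPB, the C/EBP of the stress response, fell (log2 fold change -0.91).

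Amino acid catabolism rose as a block: 32 of 38 genes were higher and 3 lower, and 27 passed the 2-fold test upward, with a median of 2.01. AGXT, which detoxifies glyoxylate in peroxisomes, stood at 4.87, 3.64 and 4.1 CPM in 2D and at 131, 103 and 88 at Day 28, a 25.8-fold difference. HAL, which starts histidine breakdown, rose from 21.5, 22.3 and 19.3 to 193, 145 and 150 CPM, and AMDHD1, a later step of the same route, from 1.66 to 2.54 to 14.6 to 30.7 CPM. TAT, the tyrosine aminotransferase induced by glucocorticoids, rose from 110, 111 and 109 to 435, 307 and 382 CPM. KYNU, kynureninase of tryptophan breakdown, was lower, at 55.5 to 60.6 CPM against 237 to 260. Of 11 urea cycle and ammonia genes 8 were higher and 1 was lower. CPS1, which fixes ammonia, reached only 9.87 to 13.4 CPM, and OTC, the next enzyme, had at most 0.16 CPM in a library.

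Of 16 gluconeogenesis and glycogen genes 9 were higher and 4 lower. G6PC (current symbol G6PC1), the phosphatase that frees glucose from the cell, stood at 0.466, 0.56 and 0.846 CPM in 2D and at 39.5, 20 and 27 at Day 28. PCK1, which commits carbon to gluconeogenesis, rose from 0.593, 0.814 and 0.39 to 18.8, 12.5 and 8.27 CPM. KHK, ketohexokinase, which phosphorylates fructose, rose 18.2-fold, from 3.1 to 3.56 CPM to 50.7 to 72.8, and SLC2A2, the hepatocyte glucose transporter, from 0.635 to 1.25 to 13.2 to 15.4. PFKP, the platelet isoform of phosphofructokinase, fell from 43, 50.4 and 48.6 to 1.39, 1.52 and 1.24 CPM, and GBE1, the glycogen branching enzyme, from 844, 885 and 877 to 99.7, 106 and 96.3. The glycolysis list as a whole split, with 12 of 28 higher and 11 lower. GYS2, liver glycogen synthase, had at most 0.117 CPM in a library.

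Lipid genes did not move as one. Of 27 fatty acid oxidation and ketogenesis genes 24 were higher and 3 lower, and FABP1, the liver fatty acid carrier, rose from 25.5, 19.7 and 21.7 to 431, 291 and 348 CPM. Of 15 fatty acid synthesis genes 12 were higher and 1 was lower, with SCD, the stearoyl-CoA desaturase, going from 119, 95.1 and 104 to 472, 399 and 445 CPM. In cholesterol synthesis and uptake 20 of 26 were higher and 1 lower, and 8 passed the 2-fold test upward. ACAT2, which makes the first intermediate of the pathway, rose from 10.8, 11.6 and 11.3 to 60.2, 59 and 67.1 CPM. Of 18 triglyceride and lipid droplet genes 7 were higher and 5 lower. GPAM, which starts glycerolipid synthesis, rose from 3.84 to 4.63 CPM to 37 to 44.7. PLIN2, the coat protein of lipid droplets, stood at 767, 786 and 739 CPM in 2D and at 159, 154 and 172 at Day 28.

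Drug handling rose unevenly and some adult enzymes were not detected. Of 18 P450 genes and partners 11 were higher and 1 lower, with 10 past the 2-fold test, yet CYP3A4, the main adult drug-oxidizing P450, reached only 0.205 to 0.66 CPM. CYP2E1 had at most 0.146 CPM in a Day 28 library. Among 29 conjugating enzymes 21 were higher and none was lower, and 17 passed the 2-fold test. GSTA1, a glutathione transferase, rose from 0.0424, 0.305 and 0.0976 to 6.62, 10.4 and 8.81 CPM, and its near-identical family members may share counts. Of 24 other oxidizing and hydrolysing enzymes 17 were higher and 4 lower, and 13 and 3 passed the 2-fold test. ADH6, an alcohol dehydrogenase, rose from 5.04, 5.7 and 6.28 to 154, 124 and 115 CPM. AKR1C1, of the same list, fell from 2120, 2310 and 2240 to 377, 258 and 342 CPM. The list took 0.3 to 0.328% of counts in 2D and 0.273 to 0.291% at Day 28. Of 20 hepatic transporters 14 were higher and 6 lower. SLC22A9, an organic anion transporter of liver, stood at 2.2, 1.4 and 1.46 CPM in 2D and at 98.9, 76.7 and 76.2 at Day 28, 51-fold. SLC51A, a subunit of the basolateral bile acid exporter, rose from 1.27 to 2.2 CPM to 25.9 to 41.6. The canalicular bile salt pump ABCB11 was at 0 in all 6 libraries, and SLC10A1, the bile salt uptake carrier, had counts in 1 Day 28 library, at 0.16 CPM.

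Most genes of mitosis and DNA replication were higher at Day 28 than in the monolayer. Of 30 mitosis genes tested 29 were higher and none lower, and 28 passed the 2-fold test, with a median of 2.63. MKI67, the Ki-67 antigen of dividing cells, stood at 4.79, 2.82 and 2.31 CPM in 2D and at 22.4, 25.9 and 27.9 at Day 28. CCNB2, a mitotic cyclin, rose from 3.94, 3.94 and 3.9 to 32.8, 28.6 and 26.6 CPM, and CCNB1, another mitotic cyclin, from 5.47, 4.12 and 3.38 to 23.6, 20.7 and 22.4. TOP2A, the topoisomerase that separates replicated DNA, rose from 2.58, 2.19 and 1.95 to 21.2, 19.8 and 17.3 CPM. The list still made up only 0.0436 to 0.048% of counts at Day 28, against 0.00777 to 0.00972% in 2D. Of 33 DNA replication genes 27 were higher and 1 lower, with PCNA, the polymerase clamp, not past the test at 27.3, 24.8 and 25.3 CPM against 21, 23.6 and 23.6 in 2D. With library totals alone PCNA was called higher (log2 fold change 0.39). Of 59 replication-dependent histones 37 were higher and 5 lower. H2AC6 was among the 5, at 357, 324 and 317 CPM in 2D and 83.9, 62.5 and 71.6 at Day 28. Histone genes are near-identical copies, so their single values are uncertain. G1 cyclins and inhibitors were divided, with 8 of 20 higher and 6 lower, and CCND1 and CCNE1, the cyclins of entry into the cycle, did not pass the test (log2 fold changes 0.03 and -0.03). CDKN1A, the cyclin-dependent kinase inhibitor p21, fell from 2.64 to 3.56 CPM to 0.292 to 0.747.

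Genes of the integrated stress response, which cells use against amino acid shortage and other stress, were lower. Of 19 tested 11 were lower and 4 higher, and 8 and 2 passed the 2-fold test. TRIB3, a pseudokinase induced by this response, fell from 37700, 33900 and 34300 CPM in 2D to 9110, 6430 and 6920 at Day 28. That one gene took 3.07 to 3.34% of all counts in each 2D library and 0.687 to 0.91% at Day 28. The sources used here do not say whether probes of abundant RNAs were attenuated, so such shares are of counts and need not be shares of RNA. ASNS, asparagine synthetase, fell from 570, 493 and 562 to 195, 183 and 177 CPM, and PPP1R15A, which lifts the translation block, from 733, 687 and 713 to 72.1, 65.8 and 79.5. GDF15, a secreted stress cytokine, fell from 6130, 6170 and 5900 to 797, 886 and 672 CPM. ATF4, the factor behind the response, was called lower (log2 fold change -0.31 ± 0.09, adjusted p = 0.0048), with overlapping groups. The ATF4 call was lost without Day 28 replicate 3 (adjusted p = 0.0714) and with library totals alone (log2 fold change -0.10, adjusted p = 0.329). STC2, a secreted glycoprotein, rose (log2 fold change 2.17). The 2 members past the 2-fold test upward were STC2 and NUPR1. The count was 1 without Day 28 replicate 1, with only the 6 libraries in the fit, and with RLE factors, another scaling. With library totals alone it stayed at 2.

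Heat shock proteins were lower, with 15 of 17 down, none up and 9 past the 2-fold test. HSPA1B, an inducible Hsp70, fell from 465, 447 and 474 to 55.3, 55.4 and 47.1 CPM, although it shares near-identical sequence with HSPA1A, which fell as well. Chaperones of the endoplasmic reticulum did not follow: 13 of 22 were higher and 5 lower, with a median log2 fold change of 0.29. Past the 2-fold test were 2 higher and 2 lower. Without Day 28 replicate 1 the count of higher genes was 10, and with library totals alone it was 16. CRELD2, a secretory chaperone, rose from 9.74, 11.6 and 8.36 to 80.4, 58.1 and 80.8 CPM, while HSPA5, the main chaperone BiP, stood at 1130, 1210 and 1100 in 2D and 974, 964 and 1150 at Day 28. HSPA5 was called lower (log2 fold change -0.16, adjusted p = 0.0442), with overlapping groups. The call was lost without Day 28 replicate 1 or 2 or 2D replicate 2 or 3 (adjusted p = 0.112, 0.317, 0.303 and 0.0639), and with library totals alone the HSPA5 value turned to 0.06. It was lost as well with only the 6 libraries in the fit and without the count filter (edgeR adjusted p = 0.0758 and 0.103). Of 18 NRF2 targets 12 were lower and 3 higher. SQSTM1, the autophagy receptor p62, fell from 910, 1010 and 977 to 195, 166 and 162 CPM, and NQO1, the most used marker of this pathway, did not pass the test (log2 fold change 0.08, adjusted p = 0.329), although it did with library totals alone (0.29).

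Most immediate early and ERK feedback genes were lower. Of 19 immediate early genes 17 were lower and none higher, and 11 passed the 2-fold test. FOSL1, a Fos-family factor sustained by ERK, fell from 338, 341 and 319 to 24.4, 25.2 and 24.1 CPM. EGR1 fell from 86.6, 69.6 and 85.3 to 16.3, 16.2 and 14.1 CPM, and MYC, which drives growth, from 1110, 1080 and 1110 to 614, 618 and 550. Of 14 ERK feedback genes 10 were lower and 1 higher. DUSP5, a phosphatase that ERK induces against itself, went from 410, 333 and 306 to 4.06, 4.06 and 3.14 CPM. Of 11 genes of the epidermal growth factor family 6 were lower and 4 higher, and 5 and 3 passed the 2-fold test. AREG, the ligand amphiregulin of the epidermal growth factor receptor, stood at 2300, 2620 and 2600 CPM in 2D and at 19.6, 18.6 and 18.2 at Day 28, a 134-fold difference and among the 15 largest falls. EGFR, that receptor, had 71 counts over the 2D libraries and 0 at Day 28, at least 19.1-fold lower with a floor of 3 counts over the group. ERBB3, a receptor of the same family, rose from 44.5 to 47.6 CPM to 180 to 191. Of 12 NF-kB targets and chemokines 8 were lower and 1 higher. CXCL8, an inflammatory chemokine, fell from 26.5, 25 and 23.6 to 0.747, 0.468 and 0.699 CPM.

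Of 10 insulin-like growth factor and insulin genes 6 were higher and 1 was lower. IGFBP1, a liver binding protein that insulin represses, stood at 1950, 2240 and 2080 CPM in 2D and at 5010, 5000 and 4690 at Day 28. IGF2, a fetal growth factor, rose from 187, 185 and 181 to 527, 683 and 646 CPM. Of 18 mTORC1 and autophagy genes 9 were lower and 3 higher. DEPTOR, an inhibitor of the kinase mTOR, rose 98.2-fold, from 0.466, 0.178 and 0.0976 to 21.1, 25.5 and 21.2 CPM. MAP1LC3B, which coats autophagosomes, fell from 4050, 4300 and 4200 to 1060, 1240 and 1290 CPM.

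Most genes of cell shape and attachment were lower, and ANKRD1, AXL, KRT19 and KRT80 were among the 15 largest falls. Of 23 YAP and TEAD targets 17 were lower and 3 higher, and 10 and 1 passed the 2-fold test; with only the 6 libraries in the fit 2 passed upward. ANKRD1, a classic YAP target, went from 1420, 1330 and 1340 to 12.4, 13.5 and 11.4 CPM, 109-fold, while CCN2, another, went from 228, 213 and 202 to 91.8, 113 and 104. AXL, a receptor kinase under YAP, fell from 91.2, 90.4 and 83.2 to 1.12, 1.72 and 2.21 CPM. Of 37 actin and focal adhesion genes 29 were lower and 4 higher. TAGLN, the actin binder transgelin, fell from 203, 220 and 225 to 10.2, 19.4 and 18.6 CPM, whereas MYH10, a nonmuscle myosin, rose from 39 to 47.3 CPM to 126 to 128. VIM, vimentin, was near 0 in both groups, at no more than 0.163 CPM.

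Of 21 S100, annexin and AHNAK genes 17 were lower and 1 higher. S100A6, a calcium-binding protein, fell from 317, 326 and 327 to 9.39, 16.5 and 10.9 CPM. ANXA3, an annexin, fell from 327, 353 and 339 to 6.51, 6.9 and 7.96 CPM, and ANXA6 rose, from 10.4 to 10.6 CPM to 43.2 to 52.9. All 6 keratins tested were lower, but by very different amounts. KRT8 and KRT18, the hepatocyte pair, fell by 0.85 and 0.94 on the log2 scale, and neither passed the 2-fold test. KRT19, a keratin of bile duct and progenitor cells, went from 54.1, 64.7 and 65.4 to 1.12, 1.08 and 0.893 CPM, and KRT80 from 106, 94.3 and 101 to 1.33, 0.994 and 1.01. Of 11 tubulins 9 were lower, led by TUBB2B, which fell from 749, 727 and 740 to 28.6, 24.9 and 31.2 CPM.

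Of 21 matrix and integrin genes 12 were lower and 7 higher. LAMB2, a laminin chain, rose from 80.3, 74.4 and 77.2 to 354, 443 and 431 CPM, and FN1, fibronectin, from 651, 644 and 641 to 1670, 2230 and 2130. LOX, which crosslinks collagen, rose from 13.3, 9.42 and 8.49 to 145, 156 and 153 CPM. ITGB1, the beta 1 integrin, stood at 497, 550 and 566 CPM in 2D and at 150, 135 and 149 at Day 28, and ITGB4, the laminin-binding beta 4 chain, at 94.4, 87.8 and 84.6 and then at 4.75, 5.56 and 10.2. Of 30 junction and polarity genes 17 were lower and 7 higher. GJB1, the gap junction protein connexin 32 of hepatocytes, rose 6.75-fold, from 46.2, 41.5 and 43.9 to 318, 267 and 301 CPM, and OCLN, occludin of tight junctions, fell from 660, 718 and 705 to 141, 150 and 152.

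**Figure D3:**
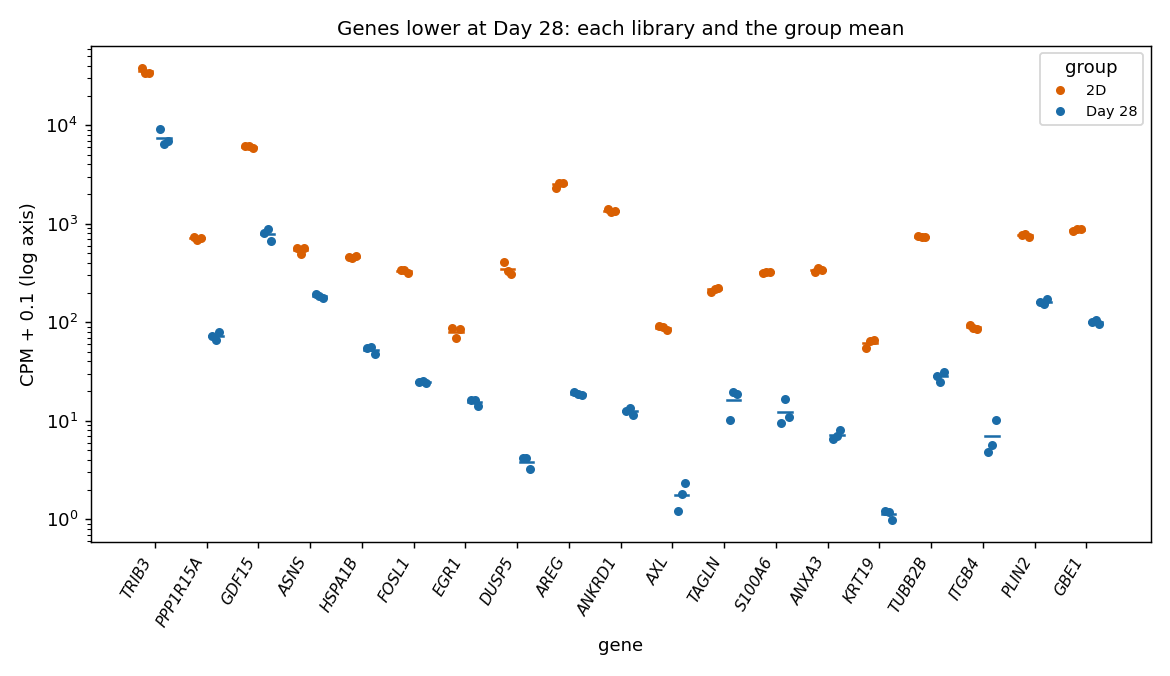
CPM plus 0.1 on a log axis for 19 genes that were lower at Day 28; points are the 3 libraries of each group (orange 2D, blue Day 28) and short lines the group means. All 3 spheroid points lie below all 3 monolayer points in every gene drawn, from 134-fold for AREG to 2.93-fold for ASNS. The same held in 4420 of all 12345 genes tested, and these genes were picked as lower, so the separation is no separate result.

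The balance of housekeeping lists depended on scaling. Of 73 cytosolic ribosomal protein genes 11 were higher and 14 lower, with a median of -0.03, and 48 were not called; with library totals alone 35 were higher and 4 lower, with a median of 0.19. Of 37 proteasome genes 8 were higher and 14 lower, and with library totals alone this turned to 14 higher and 7 lower. Of 78 oxidative phosphorylation genes 33 were higher and 25 lower, and with library totals alone 43 and 14. RPS6, a small subunit protein, stood at 2160, 2190 and 2190 CPM in 2D and at 2100, 1900 and 1890 at Day 28. It was called lower (log2 fold change -0.15, adjusted p = 0.0239), and library totals alone turned it to 0.06, so its direction depends on scaling. The RPS6 call was also lost without Day 28 replicate 2 or 3 or 2D replicate 2 or 3 (adjusted p = 0.165, 0.187, 0.107 and 0.115). The same held with only the 6 libraries in the fit and without the count filter (edgeR adjusted p = 0.0574 and 0.125). Of 14 interferon response genes 4 were higher and 4 lower.

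Day 28 was set against Day 3 and Day 21 to see which features belonged to the late spheroid, and each of these comparisons uses the same Day 28 libraries. Against Day 3, 3636 genes were higher (29.5%) and 3727 lower (30.2%), and against Day 21, 1240 were higher (10.0%) and 1724 lower (14.0%). With only the libraries of the 2 groups in the fit, the count of genes changed against Day 21 went from 2964 to 1865. Some differences from the monolayer were already about as large at Day 3. AREG averaged 18.3 CPM at Day 3 and 18.8 at Day 28, AXL 1.68 and 1.69, and FOSL1 26 and 24.6. CEBPA was higher at Day 3, at 230 CPM against 140, whereas ANKRD1 fell further, from 43 to 12.5. Of 29 conjugating enzymes 10 were higher than at Day 3 and 10 lower. All 30 mitosis genes and all 33 replication genes were lower than at Day 3, and 49 of 59 histones were. MKI67 averaged 159 ± 5.2 CPM (SD, n = 3) at Day 3 and 25.4 ± 2.8 at Day 28, and RRM2, which makes deoxynucleotides, 151 CPM and 7.71. RRM2 was also lower at Day 28 than at Day 21 (log2 fold change -1.44, adjusted p = 0.00245).

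The integrated stress response showed the reverse. Of 19 of its genes 18 were higher at Day 28 than at Day 3 and 12 were higher than at Day 21. ASNS averaged 24.3 CPM at Day 3, 177 at Day 21 and 185 ± 9.2 (SD, n = 3) at Day 28, so it remained below the monolayer mean of 541.5. Chaperones of the endoplasmic reticulum were higher than at Day 3 in 20 of 22, and cytosolic ribosomal proteins in 63 of 73. Of 26 cholesterol genes 23 were lower than at Day 3.

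Plasma proteins split over time. The secretion lists together took 4.33 to 4.62% of counts in 2D, 10.8 to 11.1% at Day 3, 14.1 to 15.4% at Day 7 and 10.2 to 11.7% at Day 28. Within them fibrinogen climbed late: FGA averaged 668 CPM at Day 3, 2699 at Day 21 and 3170 ± 330 (SD, n = 3) at Day 28, and all 4 genes of that list were higher than at Day 3. ALB averaged 11490 CPM at Day 3, 18950 at Day 7 and 8710 ± 1800 (SD, n = 3) at Day 28. IGFBP1 averaged 189 CPM on Day 3, 3573 on Day 14, 1268 on Day 21 and 4900 ± 180 (SD, n = 3) on Day 28. KLF15 averaged 9.28 CPM on Day 10 and 61.5 on Day 14, and TAT 43 and 268.5. Both were higher at Day 28 than at Day 21, with log2 fold changes of 0.86 and 1.29. KRT19 averaged 14.2 CPM at Day 3, 2.83 at Day 21 and 1.03 at Day 28.

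**Figure D4:**
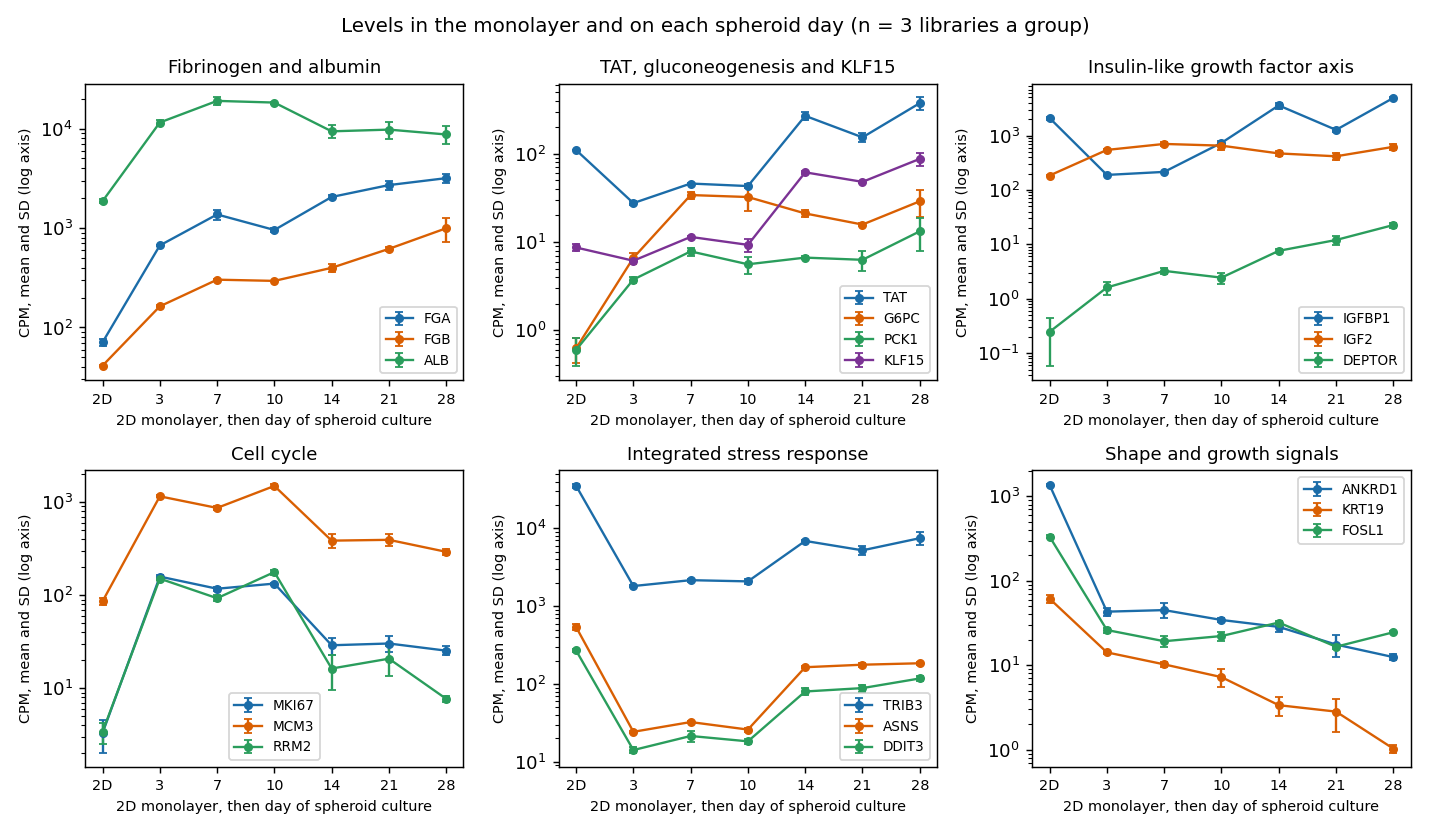
Mean CPM and SD on a log axis (n = 3 libraries a group) in the 2D monolayer and on each spheroid day, for 19 genes in 6 panels. FGA and DEPTOR end at their highest mean on Day 28, IGFBP1 and TAT dip below the monolayer early and exceed it at Day 28, cell cycle genes are lower from Day 14 on than up to Day 10, and TRIB3, ASNS and DDIT3 are higher from Day 14 on but below the monolayer. A lower error bar longer than 95% of the mean is cut there to fit the log axis.

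The Day 28 libraries varied among themselves in a few genes. HS6ST2, a heparan sulphate sulphotransferase, stood at 110, 228 and 69.7 CPM in the 3 libraries, against 3.69, 2.47 and 1.5 in 2D, and the groups did not overlap. SERPINA3, an acute phase protease inhibitor, stood at 53.6, 83.6 and 111 CPM, and RBP2, a retinol carrier, at 74.4, 35.3 and 43.4. GSE1, a transcriptional coregulator, stood at 39.6, 72.7 and 74.9 CPM, all below the 76.3 to 94.6 of 2D, and did not pass the test (adjusted p = 0.162). RANBP3, a nuclear transport cofactor, stood at 96, 39.2 and 28 CPM at Day 28 and at 108, 48.9 and 38.4 in 2D, with the first replicate high in both groups, and the difference did not pass the test (adjusted p = 0.665).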

How the data were processed

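TempO-Seq libraries were made from total RNA of HepG2/C3A cells with the assay maker's kit, per the labels' protocols. The values used are the raw counts that the authors deposited, whole numbers in 1 table keyed by gene symbol. Per the submitters' processing notes, bcl2fastq 2.20.422, fastp 0.23.2, STAR 2.7.10b, DESeq2 1.38.0 and the build GRCh38.p13 were involved, with no role given. The sources used here do not state how oligos of 1 gene were combined. A level depends on its probe, so levels compare libraries better than genes.

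Genes passing filterByExpr (minimum count 10) were kept; the 7338 removed held 0.0108% of counts. All 21 libraries were fitted together in edgeR 4.0.16 (R 4.3.3) by robust quasi-likelihood with TMM scaling, 14 residual and 18 median prior degrees of freedom, and Benjamini-Hochberg adjustment over 12345 genes. The 2-fold test was glmTreat at a log2 fold change of 1. CPM use TMM-scaled library sizes; an SE is the absolute log2 fold change over the square root of F. Bounds for genes at 0 use a floor of 3 counts over a group and cover counting error only. The code was tested on simulated data.

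The 58 gene lists hold 1448 genes, of which 1447 were in the table, 3 under an older symbol, and 1305 were tested. Members, lists and tests were chosen with earlier results of these data known, so list counts are descriptions. A gene was named if it was among the first 3 of a list, the largest 1 or 3 changes of a list or the 15 largest overall in either direction (past the 2-fold test, no overlap between groups, at least 10 CPM on average), or among the 5 most variable at Day 28; a rule for genes at 0 in one group and at least 5 CPM in the other named none. This gave 303 genes, more than are printed; some are not reported here. FGL1, TFPI, FTL, FTH1, CEBPB, STC2, NUPR1 and the cell type markers lie outside the rule and were picked after their values were seen. Locations are from GENCODE 29, and promoters from RefSeq. Alternatives were DESeq2 1.42.0, limma 3.58.1 voom, RLE factors, library totals, no filter, the 2 groups alone, a replicate block and each replicate left out.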

Additional observations from a re-analysis of the deposited data

Results flagged for a closer look

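Of 290 named genes that were tested, 4 stood on opposite sides of the monolayer at Day 3 and at Day 28, past the 2-fold test both times, and differed between these days by edgeR's quasi-likelihood test. Both differences use the same 2D libraries, which cancel in the test between days. The rule was run on named genes only, many of them named for a large difference between Day 28 and 2D. The share over all genes tested was not computed, so whether 4 of 290 is unusual cannot be told. IGFBP1, the insulin-repressed binding protein, had a log2 fold change against the monolayer of -3.47 at Day 3 and 1.23 at Day 28, a difference of 4.7 (adjusted p = 1.27e-28), with means of 189, 2090 and 4900 CPM at Day 3, in 2D and at Day 28. HAL, of histidine breakdown, changed by -1.96 and 2.95, a difference of 4.91 (adjusted p = 1.43e-13). TAT, of tyrosine breakdown, changed by -2 and 1.77, a difference of 3.76 (adjusted p = 6.89e-21). MT2A, a metal-binding metallothionein, went the other way, by 1.61 at Day 3 and -1.54 at Day 28, a difference of -3.15 (adjusted p = 7.72e-08); its near-identical family members may share counts. In each of the 4 genes all 3 Day 28 libraries lay on 1 side of all 3 2D libraries. This is common here: of all 12345 genes tested, 4794 lay wholly higher at Day 28 and 4420 wholly lower.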

How the results depend on the processing

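The counts of genes higher and lower at Day 28 stayed within 1.5 times of those reported under every alternative run: 4424 to 5661 higher and 3428 to 4394 lower. Leaving out each library in turn gave 4497 to 4703 higher and 4007 to 4285 lower. With the replicate number as a block, 4773 were higher and 4340 lower; same-numbered Day 28 and 2D libraries had correlations of deviations of only 0.073, 0.045 and 0.007, so the numbers were not taken as a pairing. One count moved: genes changed between Day 28 and Day 21 went from 2964 to 1865 with only those 2 groups in the fit; the cause was not tested. With library totals alone 3 named genes reversed, HSPA5 to 0.057, HSPB1 to 0.183 and RPS6 to 0.062, and 15 of 116 list counts past the 2-fold test moved by over 1.5 times, against 1 with RLE factors. List counts without Day 28 replicate 1, and with the 6 libraries alone, were added after seeing the data; 5 and 3 of 116 moved. Without the count filter GSE1 and RANBP3 were called lower (-0.37 and -0.24). Depth limits genes near 0, such as CYP3A4, PLG and EGFR.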

Other observations

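Of 9 genes of the metallothionein list 3 were higher at Day 28 than in 2D and 2 lower, but 7 were lower than at Day 3. MT1G stood at 3.64, 3.84 and 3.45 CPM in 2D and at 23.6, 13.7 and 18.5 at Day 28, after a mean of 142 at Day 3. Of 19 hypoxia targets 10 were higher than in 2D and 7 lower, and 7 were higher than at Day 21 with 1 lower. VEGFA, the angiogenic factor, fell from 521, 486 and 473 to 311, 315 and 299 CPM, and ADM, the vasodilator adrenomedullin, from 42.3, 57.1 and 48.6 to 4.8, 8.1 and 6.48. CA9, a hypoxia marker, was called higher (log2 fold change 2.61, adjusted p = 0.00535) at no more than 0.374 CPM. LOX, described above with the matrix genes, is also a member and rose 14.7-fold.

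Of 22 ribosome biogenesis genes 14 were higher than in 2D and 4 lower, and 14 were higher than at Day 21 with none lower. NCL, nucleolin, stood at 38.5, 43 and 37.8 CPM in 2D and at 73.5, 90.5 and 82.4 at Day 28. Of 13 clock genes 4 were higher and 6 lower; HLF, a clock output factor, rose from 63.4, 56.8 and 57.7 to 172, 182 and 183 CPM, and PER1 did not pass the test (log2 fold change 0.14, adjusted p = 0.11), although it did with library totals alone (0.36). SLC30A10, a manganese exporter, was among the 15 largest rises, from 5.97, 4.76 and 5.69 to 239, 206 and 200 CPM.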
